A study of Mus musculus with 6 samples.

Results

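Of the 23681 m6A peaks that the authors listed for ClpX cKO against WT male germ cells, 3734 (15.8%) on 3191 genes lay where their list for ClpP cKO against WT had no peak. They were chosen by position: a peak was taken when none of its exonic blocks shared a base, on the same strand, with any block of the 24127 peaks of the ClpP comparison. The choice used the peak calls of both comparisons, so it also selects on enrichment in the ClpX comparison, and every enrichment and difference given for these peaks is a description with no test. A peak missing from the ClpP list is a peak that did not pass the authors' calling there, which is not evidence that the RNA was unmethylated in ClpP cKO.

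The libraries came from germ cells labelled as spermatocytes and taken at postnatal day 35, from WT mice, from mice whose germ cells lack ClpX (ClpX cKO) and from mice whose germ cells lack ClpP (ClpP cKO). Both knockouts were made with Stra8-Cre, a recombinase driven in differentiating spermatogonia around meiotic entry, so cells that precede it and somatic cells of the testis keep the genes. Each genotype had 1 immunoprecipitated (IP) and 1 input library, 6 in all, and the ClpX comparison rests on 4 of them. The strain, the number of animals behind a library and whether the WT mice carried Cre were not stated in the sources at hand. With 1 library a group no value has a replicate error, no difference has a replicate check, and the authors' calls compare libraries, not conditions. The files hold values per comparison and none per library, so levels in single libraries cannot be shown and the read depth is unknown. Both comparisons use the same WT libraries.

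N6-methyladenosine (m6A) is a methyl mark on adenosines inside RNA, laid down by a METTL3 and METTL14 writer complex, mostly within a short sequence core that contains GGAC, and read by YTH proteins that alter the export, translation and decay of the RNA. In messenger RNA it is known for gathering around stop codons and in long last exons, and male germ cells depend on its writers and readers for meiosis. ClpX is the unfoldase and ClpP the protease of ClpXP, which degrades proteins in the mitochondrial matrix. In the assay an antibody captures methylated fragments, and a peak is a stretch where IP reads exceed input reads. Its fold enrichment is that ratio, and its log2 fold change compares ClpX cKO with WT, with positive values read as higher in the knockout because the tables name the knockout first.

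The labelled cell type was set against marker genes by whether they carried a peak, since the files give no expression level. Of 10 spermatocyte markers 7 carried a peak in the ClpX comparison, and Sycp3, Hormad1 and Meiob did not. All 9 spermatid markers carried one. Of the other cell types of the testis, 6 of 7 spermatogonial, 7 of 8 Sertoli, 4 of 5 Leydig and 7 of 13 peritubular, endothelial and immune markers did. Peaks found only in the ClpX comparison lay on 1, 3, 1, 2, 2 and 3 markers of these 6 groups in that order.

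A few stretches of these peaks can be shown as sequence. RefSeq promoter windows (build GRCm38.p6) hold the first 50 transcribed bases of a gene, and 341 of the 3734 peaks reach into those bases of their own gene. Each line gives 30 bases, 5′ to 3′ on the gene's strand, from within the peak, with GGACT or GGAC in capitals where present. They show starts of genes whose peak was called higher and holds GGAC, such starts without it, starts with GGACT, and the 3 most enriched peaks for which 30 unbroken bases were at hand. All but those 3 were chosen after their values were seen.

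Ndufb10 (chr17:24724374-24724403, minus): tccttagcgggcccagcggatccGGACgtg
Poldip2 (chr11:78512296-78512325, plus): ggcgctcgggcgGGACatggctggttgtgt
Nhp2 (chr11:51619783-51619812, plus): ttcctctatgccgGGACggagttgtagttg
Midn (chr10:80149702-80149731, plus): ggctgttgctaagggaagGGACgcgcgggg
Tnp2 (chr16:10788626-10788655, minus): gggcctgctgggaggaggaggaggaggaag
Psme3 (chr11:101316213-101316242, plus): aacttccggcgtgagcggcgaaagccggga
Wbp1 (chr6:83121432-83121461, minus): tgattggctGGACTgagcaactgtgtcctc
Adk (chr14:21052574-21052603, plus): gggcggggccaccGGACTgaggggcgGGAC
Pds5b (chr5:150673827-150673856, plus): ctggctgcggaaggggagggggggcgggag
Gm4884 (chr7:41032719-41032748, plus): gatcattacaggtatcctgtgaccagtgac
Gadd45a (chr6:67037378-67037407, minus): cagtggccccgaggcagcagtgcagagttc

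In 138 peaks all 50 of these first transcribed bases lay inside the peak. GGACT occurred on the gene's strand in 6 of the 138 (4.35%), against 4.63% of 691 such windows under peaks shared with the ClpP comparison and 5.76% of all 32851 windows. The shorter GGAC, which is part of GGACT, occurred in 32 (23.2%), against 21.7% and 18.9%. On the opposite strand the reverse complements AGTCC and GTCC occurred in 10 (7.25%) and 33 (23.9%) of the 138, against 5.35% and 16.5% under shared peaks and 4.87% and 17.4% of all windows. A match is a description of these letters and not a methylated site.

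Along genes, peaks found only in the ClpX comparison lay at the 5′ end more often than other peaks did. Of the 3734 peaks 3446 (92.3%) could be placed on a RefSeq gene span. The first 10% of the span held the centres of 788 of them, 22.9% (exact binomial 95% interval 21.5 to 24.3, over peaks as if independent). Among the peaks shared with the ClpP comparison that share was 9.52% (9.10 to 9.95), and among the 4498 peaks found only in the ClpP comparison it was 9.55% (8.66 to 10.5). The last 10% of the span held 30.2% of the ClpX-only peaks (28.7 to 31.7), against 40.9% and 39.9%. Short peaks were more often at the 5′ end in general: among peaks of 120 to 210 exonic bases the shares in the first 10% were 23.1% (ClpX only), 15.3% (shared) and 11.2% (ClpP only). An upstream edge within 30 bases of the RefSeq gene start was seen for 221 peaks (6.41%), against 3.74% of shared and 2.31% of ClpP-only peaks. Peaks are not replicates, so these differences were not tested.

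**Figure D1:**
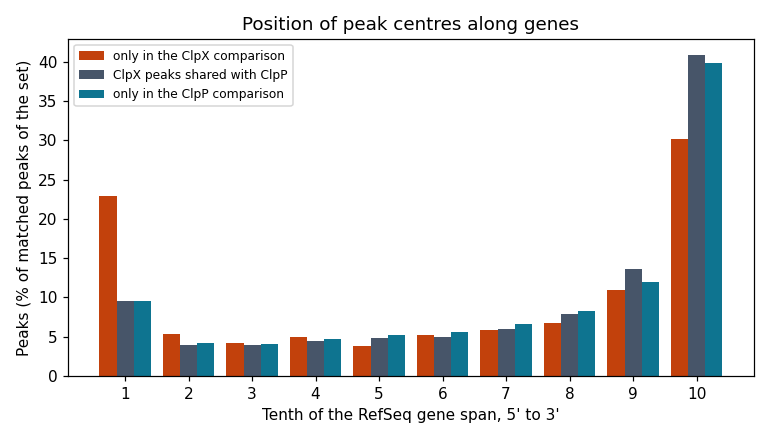
Position of peak centres along the RefSeq gene span, in 10 equal bins from 5′ to 3′ (x axis), as a percentage of the matched peaks of each set (y axis). Bars stand for the 3446 ClpX-only peaks, the 18560 shared peaks of the ClpX comparison and the 4063 ClpP-only peaks; in the first bin the ClpX-only bar reaches 22.9% and the others 9.52% and 9.55%.

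Positive log2 fold changes were not particular to gene starts or ends. ClpX-only peaks in the first 10% of a gene had a median log2 fold change of 1.0 and those in the last 10% 1.32 per the authors' deposited table, against 0.04 and 0.11 for shared peaks. Peaks found only in the ClpP comparison had 0.74 and 1.04 there, ClpP cKO against WT, and in each of the 10 bins the ClpX-only median lay between 1.0 and 1.40. The choice of the peaks favours such values. Of those in the first 10% 133 (16.9%) were called higher and 0 lower by the authors' adjusted p under 0.05, against 20.4% higher over all ClpX-only peaks and, over the table, 15.1% higher and 5.0% lower. Tnp2, a transition protein that replaces histones in spermatids, had its peak at 7.36% of the gene span (chromosome 16, 10788544 to 10788660), with a log2 fold change of 1.23 at an adjusted p of 3.2e-20 per the authors' deposited table. Ndufa13, a complex I subunit, had one at 3.36% (chromosome 8, 69902201 to 69902350), with 2.89 and 9.1e-07 in the same table. A second ClpX-only peak of Ndufa13 at 7.27% had 0.56 and was not called, adjusted p 0.57, per the authors' deposited table. The synaptonemal complex gene Syce2 had a spliced peak at 4.51% (chromosome 8, 84872712 to 84883489), with 2.32 and 4.0e-06 per the authors' deposited table.

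These peaks were shorter than shared peaks and listed at higher peak p values, as were the peaks found only in the ClpP comparison. Their exonic length had a median of 151 bases (10th to 90th percentile 120 to 270), against 359 (175 to 923) for shared peaks and 178 (120 to 271) for ClpP-only peaks. The median log10 adjusted p of the peak was -3.01 for ClpX-only and for ClpP-only peaks and -12.3 in shared peaks per the authors' deposited tables. Lengths fell on steps: 970 peaks were within 1 base of 120, 840 of 150, 711 of 180 and 344 of 210. Only 23 peaks exceeded 500 bases, against 6436 shared peaks. Spliced peaks, with more than 1 exonic block, made up 17.1%, against 29.4% of shared peaks. The adjusted p of the peak itself was above 0.001 for 1858 peaks (49.8%), against 11.1% of shared peaks. The highest peak value listed for the comparison was 0.0407 per the authors' deposited table.

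Fold enrichment separated them into weak peaks with many calls and strong-looking peaks with few. Its median was 5.28 (10th to 90th percentile 1.96 to 14.5) per the authors' deposited table. Shared peaks had 9.40 (3.03 to 25.6), and ClpP-only peaks 6.89 (2.23 to 15.3) in their own comparison. Of 396 ClpX-only peaks under 2, 282 (71.2%) were called higher. Between 2 and 5 the number was 414 of 1402 (29.5%), and from 8 upward 30 of 1460 (2.05%). Shared peaks showed the same fall, with 47.9%, 24.5% and 6.93% called higher in these ranges. The peaks from 8 upward piled up on a ladder of values: fold enrichments of 9.4, 10.3, 11.1, 12, 12.8, 13.7, 14.5 and 15.4 alone held 1059 peaks (28.4%), 14 of them called. Over the whole set 2304 peaks (61.7%) had exactly the same fold enrichment and peak p as another peak of the table, against 31.4% of shared peaks, and from 8 upward 93.4% did. The source of these repeated values was not tested.

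**Figure D2:**
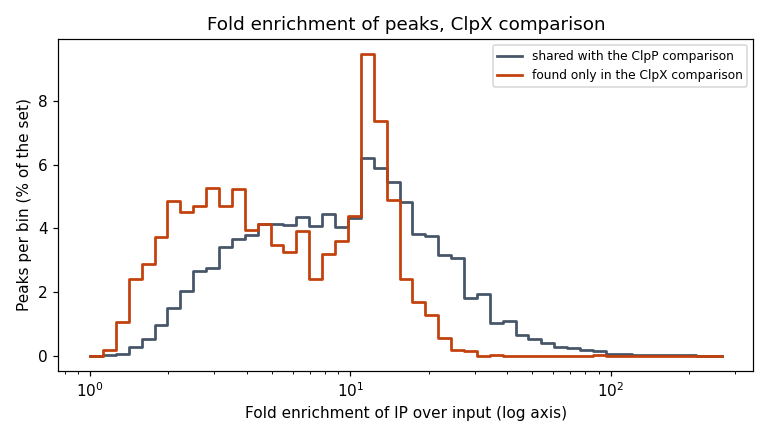
Fold enrichment of IP over input (x axis, log scale) for the 3734 ClpX-only peaks and the 19947 shared peaks of the ClpX comparison, as the percentage of each set per bin (y axis). The ClpX-only peaks have their median at 5.28 and a second group between 9.4 and 15.4, and the shared peaks have their median at 9.40.

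Of the 767 calls among these peaks 763 were increases. By the authors' adjusted p under 0.05, 763 peaks on 708 genes were higher in ClpX cKO (20.4%) and 4 were lower (0.107%). Over all peaks of the ClpX comparison 15.1% were called higher and 5.0% lower. The choice of the peaks used this contrast, so the shares are printed side by side and nothing is read from them. The mirror-image set, chosen in the same way, had the same lean: of the 4498 peaks found only in the ClpP comparison 529 (11.8%) stood higher in ClpP cKO by the same call and 0 lower, against 6.74% and 12.8% over all ClpP peaks. All directions turn if the ratio runs the other way.

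In size, the median log2 fold change was 1.22 (10th to 90th percentile -0.58 to 2.85) per the authors' deposited table, against 0.10 (-1.46 to 1.46) for shared peaks and 0.24 over all peaks. Positive values were seen for 3048 peaks (81.6%), and 2171 (58.1%) reached 1 or more, against 19.6% of shared peaks. The ClpP-only peaks were close to this: 78.9% were positive, with a median of 0.98 (-0.52 to 2.50) in ClpP cKO against WT. Of those 2171, 715 were called. With the table's median set to 0 and each peak called again, 646 were higher and 111 lower, so that the share of calls that were higher went from 99.5% to 85.3%. The same step turned the calls over the whole table to 2647 higher (11.2%) and 3485 lower (14.7%). The step gives a peak near 0 a small standard error by construction, so such a peak can be called lower once the median is subtracted. Lower calls after centring, here and in the gene lists, and the fall to 85.3% are therefore not read as decreases.

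**Figure D3:**
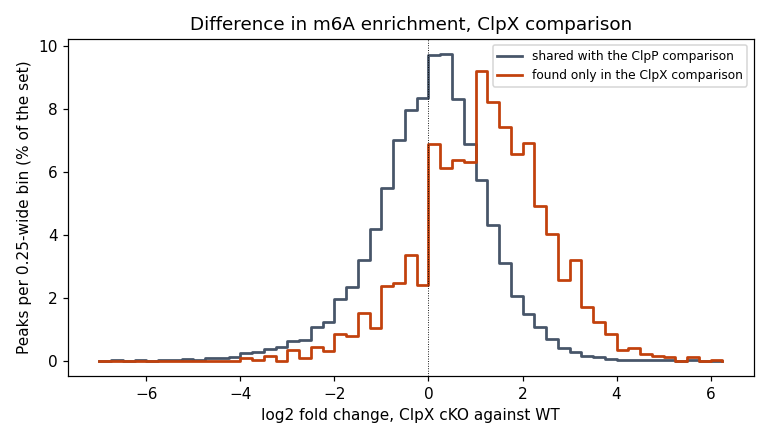
Distribution of the log2 fold change, ClpX cKO against WT (x axis, bins of 0.25), as the percentage of each set (y axis). The ClpX-only peaks centre on 1.22 and the shared peaks on 0.10.

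The 4 peaks with the smallest adjusted p lay on mitochondrial transcripts. The mitochondrial genome carried 8 peaks in the ClpX comparison, 5 of them ClpX-only, and 7 in the ClpP comparison. mt-Nd5, a complex I subunit, had one of 1226 bases at positions 12340 to 13565, the longest of all 3734, with a log2 fold change of 2.74 and a fold enrichment of 2.08 per the authors' deposited table. On the same RNA the peak shared by both comparisons, at 11742 to 12190 for ClpX, had 1.48, and its ClpP counterpart at 11742 to 11951 had -0.48 per the authors' deposited table. mt-Cytb of complex III (14614 to 15259) had 2.39, and mt-Nd1 of complex I (2841 to 3647) had 2.15 per the authors' deposited table. The complex IV subunit mt-Co1 (6575 to 6813) had 3.51 with the highest fold enrichment of the whole set, 91.4, per the authors' deposited table. mt-Nd6 (13552 to 14070), on the opposite strand, had 2.28 per the authors' deposited table, and its peak shares bases with that of mt-Nd5, so reads of the 2 RNAs may not be told apart if the strand was not kept. No ClpP peak lay on that strand. The shared peaks of mt-Nd2 and mt-Nd4 had 1.77 and 2.29 in the ClpX comparison per the authors' deposited table, both called higher. In ClpP cKO against WT mt-Nd2 had 0.43 and 0.62 and mt-Nd4 0.79 and 0.83 per the authors' deposited table. The ClpP-only peaks of mt-Rnr1 and mt-Rnr2 had 1.67 and 1.65 there. All of these ClpP peaks were called higher, unlike that of mt-Nd5.

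Among the nuclear gene lists, histones had the most called ClpX-only peaks. Of 55 histone peaks in the ClpX comparison 20 (36.4%) were ClpX-only, against 15.8% over the table. Of the 20, 15 (75%) were called higher and 0 lower, against 20.4% and 0.107% of all ClpX-only peaks, and 14 and 0 after centring. Their median log2 fold change was 1.14, against 1.22 over all ClpX-only peaks. Their median fold enrichment was 2.68, and of all ClpX-only peaks between 2 and 3 40.6% were called higher. Shared histone peaks were also often called: 14 of 35 were higher and 3 lower, against 14.1% and 5.92% of all shared peaks. Hist1h2al, named for histone H2A but listed by RefSeq as a transcribed pseudogene, and Hist1h2ak, a core histone H2A gene, had 1.97 (chromosome 13, 51202727 to 51203065) and 1.66 (chromosome 13, 21753435 to 21753827) per the authors' deposited table. Their log10 adjusted p values were -285 and -126, and their fold enrichments of 1.57 and 2.19 were low. Hist1h3a, a histone H3 gene, had 1.35 (chromosome 13, 23762208 to 23762386; adjusted p 1.3e-25) per the authors' deposited table. The peaks of Hist1h2al and Hist1h2ak share bases with peaks of Gm44341 and Gm44454 on the other strand, and histone genes are near-identical copies among which reads can be misassigned. Of the 20 peaks 19 lay on genes with no peak at all in the ClpP comparison. H2afj appears more than once among the 20, each time at 3.96, so the 20 peaks lie on 19 genes.

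Ubb, Polr2a, Tbp and Mea1 were also among the genes named by rank. Ubb, a polyubiquitin gene, had 1.56 at its ClpX-only peak (chromosome 11, 62552585 to 62552735) and 1.34 and 0.87 at its shared peaks per the authors' deposited table. Polr2a, the largest subunit of RNA polymerase II, had 2.38 (chromosome 11, 69734716 to 69734985) beside a shared peak at 0.90 per the authors' deposited table. Tbp, the TATA-binding protein, had 2.77 (chromosome 17, 15504433 to 15504583) beside a shared peak at 0.29 per the authors' deposited table. A second ClpX-only peak at the start of Tbp (15499888 to 15500038) had 0.25 and was not called, adjusted p 0.61, per the authors' deposited table. Mea1, a gene named for male-enhanced antigen 1, had 1.48 (chromosome 17, 46682725 to 46683081) beside shared peaks at 1.33 and 0.34 per the authors' deposited table.

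ClpX-only peaks called higher mostly stood above the shared peaks of their own gene. Of the 763 called higher 467 lay on one of 430 genes that also had a shared peak, and 440 of the 467 exceeded the median of that gene's shared peaks. The median of the 467 was 2.08, and that of their genes' shared peaks 0.36. On 204 of the 467 the gene also had a shared peak called higher, and on 44 it had one called lower. Over all 2246 ClpX-only peaks beside a shared peak, called or not, 1643 (73.2%) stood above it, by a median of 0.97. The choice favours this order. The 467 were also kept for being called higher, while shared peaks were taken whether called or not, which favours it further. The order is therefore given as a description.

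**Figure D4:**
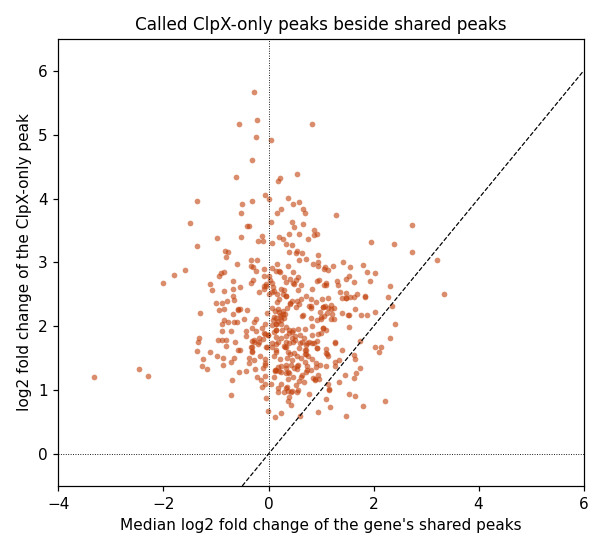
Each point is 1 of the 467 called ClpX-only peaks on a gene with a shared peak, with its log2 fold change (y axis) against the median log2 fold change of the gene's shared peaks (x axis). The dashed line marks equality, and 440 points lie above it. The points were kept for being called higher, which favours that side of the line.

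The 4 peaks called lower were on Clta, Smpd5, Cacfd1 and Gm25360. Clta, the clathrin light chain A gene, had -2.13 (chromosome 4, 44032666 to 44032816; adjusted p 0.0041) per the authors' deposited table. Smpd5, a sphingomyelin phosphodiesterase, had -1.33 (chromosome 15, 76295333 to 76295452; adjusted p 0.0046), and Cacfd1 had -0.99 (chromosome 2, 27019684 to 27020013; adjusted p 0.0055) per the authors' deposited table. The predicted gene Gm25360, listed by RefSeq as a small nuclear RNA, had -0.46 (chromosome 1, 72226240 to 72226376) at an adjusted p of 5.0e-13. It is named for the size of its decrease, as predicted genes are left out only of the ranking by adjusted p. None of the 4 had a fold enrichment above 2.12. Clta and Smpd5 each had another ClpX-only peak that was called higher, at 3.01 (adjusted p 1.2e-10) and 1.0 (0.0058) per the authors' deposited table. Clta also had a ClpP-only peak called higher, at 2.0 in ClpP cKO against WT, per the authors' deposited table. Cacfd1 had a shared peak called lower in both comparisons, at -3.10 for ClpX and -3.25 for ClpP, and another at 1.78 for ClpX, uncalled, per the authors' deposited tables. The shared peak of Smpd5 was called higher for ClpX, at 0.55, and lower for ClpP, at -0.85, per the authors' deposited tables.

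The 5 largest called increases were on Ifitm3, Creb3l1, Smpd1, Ltbp4 and Vsir. Ifitm3, an interferon-induced membrane protein, had the highest log2 fold change of the set, 6.10 (chromosome 7, 141009615 to 141009733; adjusted p 1.1e-06), per the authors' deposited table. Creb3l1, a membrane-bound transcription factor, had 5.68 (chromosome 2, 91982657 to 91982866; adjusted p 1e-06), per the authors' deposited table. Smpd1, the acid sphingomyelinase, had 5.67 at an adjusted p of 0.049, Ltbp4, which binds latent TGF-beta, had 5.51 at 0.0011, and Vsir, an immune checkpoint gene, had 5.23 at 0.044 per the authors' deposited table. Ifitm3, Creb3l1 and Ltbp4 had no peak in the ClpP comparison. Zfhx2 had an uncalled peak at 5.70 (adjusted p 0.085), so a large value alone did not bring a call. Ifitm3 and Vsir each had a second ClpX-only peak, uncalled, at 0.52 and 2.07 per the authors' deposited table. The called peaks of Smpd1, Ltbp4 and Vsir had the same fold enrichment and peak p as another peak of the table. Shared ClpX peaks had -0.50, -1.01, 2.72 and -0.07 on Smpd1 and -0.23 on Vsir per the authors' deposited table.

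Genes differed in whether the ClpP comparison saw them at all. Peaks on genes with no ClpP peak anywhere numbered 1295, on 1139 genes, and 259 of these (20.0%) were called higher and 1 lower. Predicted and uncharacterised genes made up 25.3% of those 1295, against 10.4% of the 2439 on genes with a ClpP peak. The median log2 fold change was 1.20 in the former and 1.22 in the latter. Protein-coding genes carried 3102 of the 3446 placed peaks (90%), against 91.0% of shared peaks.

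Distance to the nearest ClpP peak varied widely. It was at most 100 bases for 167 peaks, 100 to 1000 for 969 and over 1000 for 2596, with a median of 6346 bases between the nearest blocks on the strand. The nearest misses were on Gm21992, 4932431P20Rik and Poc1b, at 6, 14 and 26 bases. Just outside the rule, peaks of Irs1, Plcl1 and 3110045C21Rik shared the fewest bases with a ClpP peak. The log2 fold changes of these 3 were 0.32, -0.58 and 0.81, and those of the 3 nearest misses were 0.68, 3.10 and 0.74 per the authors' deposited table. Of the ClpX-only peaks 63 share bases with a ClpP peak on the opposite strand.

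Most genes had a single ClpX-only peak (2732 of 3191), 390 had 2 and 69 had more. The count of 6 for Kctd11, an adaptor of a ubiquitin ligase, comes from 3 places each listed under a pair of near-identical rows. In all 124 peaks share bases with another of the set, and merging them leaves 3672. Zfp469 and Zfhx2, both zinc finger genes, had 5 separate peaks each, the most after merging. Those of Zfp469 lay between 95.8% and 96.6% of the gene span (chromosome 8, 122262873 to 122265002) with log2 fold changes of 2.58, 3.07, 1.26, 0.74 and 3.58 per the authors' deposited table, none called. Those of Zfhx2 had 1.32, 5.70, 0.27, -0.65 and 0.29 per the authors' deposited table, again with no call, and 3 of them share bases with Zfhx2os or Gm20687 on the other strand.

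Clpp itself was among the ClpX-only genes. Its peak (chromosome 17, 56996039 to 56996188) lay at 95.8% of the gene span, with a log2 fold change of 1.70, a fold enrichment of 3.23 and an adjusted p of 0.069 per the authors' deposited table, which leaves it uncalled. Clpp had no peak in the ClpP comparison. Enrichment divides IP by input, so it is no check of the genotype. Clpx had no ClpX-only peak. In the list of ClpXP and mitochondrial proteostasis genes 6 of 35 ClpX peaks (17.1%, against 15.8% over the table) were ClpX-only and 1 was called: Clpb, a mitochondrial disaggregase, at 2.80 (chromosome 7, 101786889 to 101787863) per the authors' deposited table. The gene's shared peak stood at -1.80 for ClpX and -1.77 for ClpP per the authors' deposited tables, uncalled in both. Pmpca, a subunit of the peptidase that trims imported proteins, had 1.32 at an adjusted p of 0.085 per the authors' deposited table.

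Among ClpX-only peaks, nuclear genes of the respiratory chain and of fuel oxidation had 10 calls, all of them increases by the authors' scaling. Of all ClpX-only calls 99.5% were increases. Shared peaks of the respiratory chain list had 8 calls higher and 2 lower, and those of the TCA cycle and fatty acid oxidation list 7 and 0. Every count of calls in a list is to be read beside the 20.4% of all ClpX-only peaks called higher, and every count of ClpX-only peaks beside the 15.8% over the table. In the respiratory chain list 12 of 51 peaks were ClpX-only and 6 (50%) were called higher, with 5 higher and 1 lower after centring. Beside Ndufa13 these included Sdhd of complex II at 1.85 (chromosome 9, 50596738 to 50596972; adjusted p 2.2e-08) and Cox6b2, the testis form of a complex IV subunit, at 0.83 per the authors' deposited table. Sdhd also had a ClpP-only peak 58 bases away, at 1.29 in ClpP cKO against WT (adjusted p 1.3e-09, called higher), per the authors' deposited table. In the list of the TCA cycle and fatty acid oxidation 9 of 27 were ClpX-only and 4 (44.4%) were called higher. Ogdh and Dlst, subunits of the same dehydrogenase complex, had 1.93 and 1.96, and Acadvl, which starts the oxidation of very long fatty acids, had 3.42 per the authors' deposited table. The Acadvl peak shares bases with one of Dvl2 on the other strand. Of 84 peaks on mitochondrial ribosomal protein genes 7 (8.33%) were ClpX-only and 3 were called higher, with Mrpl4 at 2.76 and Mrpl51 at 1.48 per the authors' deposited table. The list of mitochondrial dynamics and mtDNA upkeep had 2 of 39, neither called, with Mief2 at 3.75 (adjusted p 0.066) per the authors' deposited table. These lists were drawn up with earlier results of these data known, so their counts are not independent evidence.

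Nutrient sensing, autophagy and stress genes had scattered calls. Of 86 peaks on mTORC1 genes 14 were ClpX-only and 2 (14.3%) called higher: Tsc2, part of the complex that restrains mTORC1, at 2.98 (chromosome 17, 24596565 to 24596745), and Nprl3, part of an amino acid sensing complex, at 1.78 per the authors' deposited table. The Nprl3 peak shares bases with one of Mpg on the other strand. Tsc2 also had a ClpP-only peak 149 bases away, at 2.91 with an adjusted p of 0.33 per the authors' deposited table. Among autophagy genes 8 of 57 were ClpX-only and 3 (37.5%) called higher: the receptor Nbr1 at 1.67, the conjugation factor Atg16l1 at 3.56 and the regulator Ambra1 at 2.66 per the authors' deposited table. The integrated stress response list had 13 of 61. Of these the transcription factor Atf4 at 0.90 and the phosphatase subunit Ppp1r15b at 1.60 were called higher per the authors' deposited table. The Ppp1r15b peak shares bases with one of Gm26616 on the other strand. A second Atf4 peak at 0.0 was uncalled, and after centring 1 peak of the list was higher and 1 lower. The shared Ppp1r15b peak, of fold enrichment 30.8, was called lower in both comparisons, at -0.31 for ClpX (adjusted p 0.043) and -0.58 for ClpP (3.2e-06), per the authors' deposited tables. The shared Atf4 peak for ClpX was called higher, at 1.65. Apoptosis genes had 7 of 42, of which Diablo, an antagonist of caspase inhibitors, was called at 1.17 per the authors' deposited table. That peak shares bases with one of Gm49027. Shared peaks of Diablo in the ClpX comparison had -1.58 (adjusted p 4.2e-04, called lower), 0.88 (0.52) and 1.23 (0.050) per the authors' deposited table.

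Germ-cell lists ranged in their share of ClpX-only peaks, and all calls among those peaks were increases by the authors' scaling. Of all ClpX-only calls 99.5% were increases. Shared peaks were called both ways: 15 higher and 6 lower in meiotic recombination and synapsis, and 15 and 5 in cell division. They had 9 and 2 in the piRNA list, 46 and 11 in spermatids and sperm, and 5 and 1 in spermatogonia and meiotic entry. The meiotic recombination and synapsis list had 12 ClpX-only peaks of 86 (14%), 3 called higher. They were Syce1 and Syce2, central element proteins of the synaptonemal complex, at 1.82 and 2.32, and the histone reader Zcwpw1 at 2.51 per the authors' deposited table. The ClpX-only peak of Zcwpw1 shares bases with one of Pilra on the other strand. Syce2 and Zcwpw1 also had ClpP-only peaks called higher, at 1.37 and 2.67 in ClpP cKO against WT, per the authors' deposited table. Among cell division genes 9 of 90 were ClpX-only, with the condensin gene Ncapd2 at 1.37 and Incenp of the chromosomal passenger complex at 1.76 called higher per the authors' deposited table; after centring 1 peak of the list was called higher. The piRNA list had 5 of 36 and 3 called higher: Piwil2, an Argonaute of the PIWI clade, at 1.33, Tdrd6 at 1.05 and Tdrd9 at 1.69 per the authors' deposited table. The shared Piwil2 peak had -1.18 for ClpX, uncalled. Shared peaks of Tdrd6 had 0.35, 0.34 and -0.08 for ClpX and -0.72, -0.53 and -0.93 for ClpP per the authors' deposited tables. Those ClpP values were all called lower. Spermatid and sperm genes had 21 of 169 (12.4%) with 9 called higher, or 6 higher and 1 lower after centring. Tcp11 at 1.30 and the tektin Tekt1 of the sperm flagellum at 2.50 led with Tnp2 per the authors' deposited table. The shared Tcp11 peak had -0.43 for ClpX, uncalled, and -1.08 for ClpP, called lower, per the authors' deposited tables. Spermatogonial and meiotic entry genes had 10 of 38 (26.3%) and 0 called, with Sall4 at 1.51 (adjusted p 0.079) and Crabp1 at 1.74 (0.056) per the authors' deposited table.

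Markers of somatic cells also carried ClpX-only peaks. The list for Leydig cells and for peritubular, endothelial and immune cells held 14 of 39 (35.9%), on 12 genes, with a median log2 fold change of 2.09 (-0.29 to 4.0) and 6 called higher, or 5 after centring. Insl3 and Cyp17a1 of Leydig cells had 2.01 and 2.11, and the basement membrane collagen Col4a2 had 2.92 per the authors' deposited table. Insl3 and Jak3 have overlapping peaks on the same strand. Among immune genes C1qa had 4.0, C1qc 3.5 and 2.55, Csf1r 2.42 and 1.38, and Cd14 0.66 per the authors' deposited table. These are all the immune peaks of the list, given beyond the naming rule. Which of them were called is not given here, so their sizes are not read as increases. Of the 14 peaks 13 were positive, and Dcn stood at -0.29. Other markers of such cells, Acta2, Pecam1, Vwf, Ptprc, Cd68, Adgre1 and Cyp11a1, had no peak in the ClpX comparison. The Sertoli cell list had 7 of 51, with Clu at 1.24 and Vim at 1.87 called higher per the authors' deposited table, and Amh had no peak. Vim also had a ClpP-only peak called higher, at 1.47 in ClpP cKO against WT, per the authors' deposited table. Whether the number of such cells differed between the libraries, and its part in the values above, was not tested, and fewer cells of a type and less RNA per cell cannot be told apart in such bulk samples.

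m6A machinery, translation and protein turnover gave these counts. Of 60 peaks on writers, erasers and readers 7 were ClpX-only and 0 were called by the authors' adjusted p; the reader gene Hnrnpa2b1 had 0.53 (adjusted p 0.065) and Rbmx 2.91 (0.30) per the authors' deposited table. Translation factors had 16 of 113, 5 (31.2%) called higher, with the initiation factor subunits Eif3b at 1.66 and Eif3g at 2.24 and 1.43 per the authors' deposited table. That list was matched by name and also took eIF2 kinases and eEF1A methyltransferases, which are no translation factors. Ubiquitin and proteasome genes had 12 of 87, 6 (50%) called higher. Zinc finger genes had 83 of 936 (8.87%), of which 13 were called higher, or 8 higher and 4 lower after centring, with Zfp318 at 2.13, Zfp787 at 2.89 and Zfp771 at 2.27 per the authors' deposited table. Olfactory, vomeronasal and beta-defensin genes had 3 of 23, 0 called by the authors' adjusted p, with Vmn2r57 at 3.17 (adjusted p 0.52) per the authors' deposited table.

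**Figure D5:**
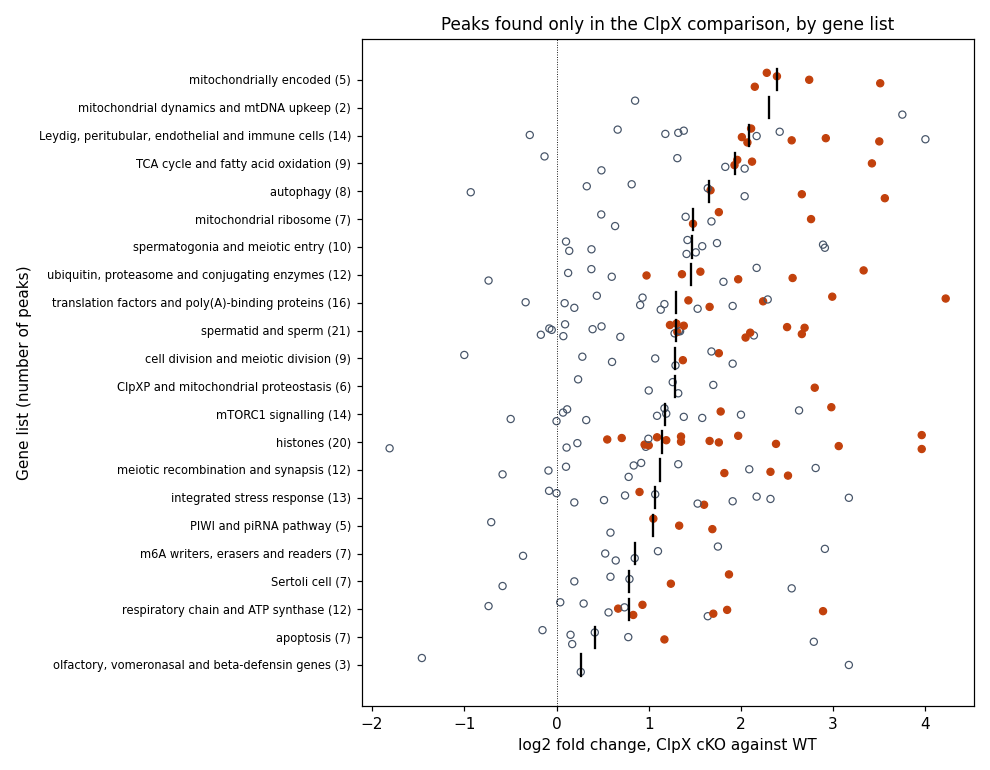
log2 fold change, ClpX cKO against WT (x axis), of every ClpX-only peak in each gene list (y axis, with the number of peaks in brackets; zinc finger genes are left out). Filled points were called by the authors' adjusted p under 0.05, open points were not, and black bars mark medians, from 0.26 for olfactory, vomeronasal and beta-defensin genes to 2.39 for mitochondrially encoded genes.

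Of the 5 peaks with most enrichment only mt-Co1 was called. After mt-Co1, the highest fold enrichments belonged to Pmepa1 at 35.0, Dph2 at 29.9, Pds5b at 29.1 and Pop5 at 29.1 per the authors' deposited table. Their log2 fold changes of 2.07, 0.74, 1.52 and 2.32 had adjusted p values of 0.42, 0.65, 0.61 and 0.29 per the authors' deposited table. Pds5b regulates cohesin, Dph2 takes part in making diphthamide, and Pop5 is a subunit of RNase P. At the gene starts printed with their sequence, Gadd45a had a fold enrichment of 26.5 and a log2 fold change of -0.06, and Gm4884 had 28.2 and 1.14 per the authors' deposited table, neither called. Eif2ak4, a kinase of the integrated stress response, also has a peak at its start, with 20.5 and 1.53 (adjusted p 0.58) per the authors' deposited table. The 4 printed starts that hold GGAC were picked for their calls, so their enrichment is not set against these. Ndufb10 had a fold enrichment of 1.96 and a log2 fold change of 0.93, Poldip2 1.79 and 1.5, Nhp2 4.66 and 2.03, and Midn 4.49 and 2.18 per the authors' deposited table, all called higher. Other starts with GGAC had high enrichment and no call, among them Gm31816 at 19.7, Pphln1 at 17.9, Prdm9 at 17.1 and Ccdc17 at 17.1 per the authors' deposited table, named after their values were seen. Psme3, a proteasome activator without GGAC in the stretch shown, had 8.54 and 3.33 (adjusted p 1.7e-05) per the authors' deposited table. Wbp1 and Adk, with GGACT, had log2 fold changes of 0.43 and 0.90 per the authors' deposited table and were not called. The window of Midn lies inside its gene span, at a start downstream of the first.

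Other extremes were Agt, the angiotensinogen gene, with 857 exonic bases at 1.20, and the most spliced peaks, on Tmeff1 with 5 blocks at 1.23 and on Ctsd and Farsa with 4 blocks at 1.39 and 1.45 per the authors' deposited table. The Ctsd peak shares bases with one of Gm49369. The peak of Tmeff1 was not called.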

How the data were processed

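IP and input libraries were made from 1.3 ug of total RNA, per the labels' protocols. The authors deposited 1 table per comparison on the mouse build GRCm38, also named mm10, per the submitters' processing notes. Which aligner, caller and depth scaling they used was not stated in the sources at hand. Per the file headers each row holds a peak's p-value, the scores lg.p and lg.fdr (log10 of that p and its adjusted form), a fold enrichment, which is a linear ratio of IP to input, the log2 fold change between genotypes and the scores log10 p and log10 adjusted p of that difference.

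Blocks were compared base by base on the same strand with Python 3.11.15 and pandas 2.3.3; 1 shared base made a peak shared. The overlap and the re-calling were tested on simulated data. A call is the authors' adjusted p under 0.05. Gene spans and sequences come from RefSeq (GRCm38.p6), matched by symbol or, for spans, synonym. Centring subtracted the median of the ClpX table, 0.24, and took each peak's standard error from its deposited p and log2 fold change. The members, the 23 gene lists and the alternatives were chosen with earlier results of these data known. Named genes followed a rule: Clpp and Clpx; the 8 smallest adjusted p per direction without predicted genes; up to 3 per list; the extremes of size, enrichment, length, blocks, number and distance; gene starts; and peaks beside a shared peak. Some further genes and peaks, such as the immune genes of the somatic list, were named beyond this rule. The table held 2 rows that repeat another, which were kept. A gene that the rule also names is not reported here.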

Additional observations from a re-analysis of the deposited data

How the results depend on the processing

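The number of ClpX-only peaks, 3734, became 1295 with genes that had any ClpP peak left out and 1873 with a peak adjusted p under 0.001, and lay between 3567 and 4540 under the other overlap rules and after merging. The 763 called higher became 259 on genes with no ClpP peak and 481 at a fold enrichment of at least 2, and stayed within 1.5 times under the other 11 settings. The 4 called lower became 9 when a ClpP peak had to cover at least 50% of a peak to count as shared, 1 on genes with no ClpP peak, 2 at a fold enrichment of at least 2, 2 with 1 peak per gene, 10 with the unadjusted p, 2 with a log2 fold change of 1 or more either way and 111 after centring, where a peak near 0 gets a small standard error by construction. The median log2 fold change of 1.22 became 1.17 under the 50% rule, 1.38 with the stricter peak p and 0.98 after centring. The median fold enrichment of 5.28 became 5.85 under the 50% rule, 6.41 on genes with no ClpP peak, 3.95 with the stricter peak p and 6.41 at a fold enrichment of at least 2. The share in the first 10% of genes was 22.9%, and 20.9% by the centre of the 3′ block. The cause of these shifts was not tested beyond what each setting leaves out. No paired analysis was possible because each group holds 1 library. Merging and the limit on length were added after the data were seen. With no counts, depth sets no stated limit here.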
